A study of Mus musculus with 4 samples.

Results

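The tRNA genes of the mouse autosomes were examined for binding of CTCF, the zinc-finger protein found at chromatin boundaries and loop anchors, in the testes of F1 (B6xCAST) hybrid mice. Members were all genes of biotype tRNA on the 19 autosomes in the RefSeq table of GRCm38.p6, an assembly with the same chromosome positions as mm10, the build of the peaks. Of 430 tRNA genes in the table, 22 were mitochondrial, 17 lay on X and 5 had scaffold coordinates, which left 386 of 46710 annotated autosomal genes. The series holds 4 samples, 2 CTCF chromatin immunoprecipitations and 2 inputs, labelled as biological replicates 1 and 2 of each. Age and individual animals are not given, and the peak list is named for whole testis, so the germ cell stages and somatic cells of the organ are mixed in every value. All values come from 1 merged peak list of 51871 peaks, and whether 1 or both immunoprecipitations entered it is not given in the sources used here. The names of its peaks carry both bio2 and merged, which does not settle it. That list gives neither a value per sample nor a read depth, so no spread between samples can be given.

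Transfer RNA genes are short genes transcribed by RNA polymerase III. Their promoter lies inside the gene, in an A box and a B box that the factor TFIIIC binds before it places TFIIIB, and the polymerase, at the start. In yeast and in mammalian somatic cells, tRNA genes and other TFIIIC sites have been described as boundaries between chromatin domains, and some lie near CTCF and cohesin. In the labels used here, a name such as n-TRtcg5 gives the amino acid in 1-letter code (R, arginine) and the anticodon (tcg).

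Of 4 tRNA genes that lie whole in the RefSeq promoter sequences (GRCm38.p6), 3 held a match to the B box, and they show the internal promoter that tRNA genes share. Capitals mark the B box, searched as GTTCGANNC on both strands, and each gene is given in the direction that carries it.
n-TRtcg5: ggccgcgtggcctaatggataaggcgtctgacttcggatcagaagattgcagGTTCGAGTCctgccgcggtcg
n-TVcac9: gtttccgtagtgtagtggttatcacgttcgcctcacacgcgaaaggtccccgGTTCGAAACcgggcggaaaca
n-TTagt9: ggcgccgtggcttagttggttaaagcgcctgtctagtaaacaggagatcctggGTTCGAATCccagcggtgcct
The B box began at base 53 in n-TRtcg5 and n-TVcac9 and at base 54 in n-TTagt9. The first (chr7:79466419-79466491, plus strand) had a CTCF summit at 199 bp with a fold enrichment of 9.99. It lies inside the annotated mitochondrial polymerase gene Polg, within the 250 bases before an annotated start of that gene. The second (chr13:23446142-23446214, minus strand) had a summit at 336 bp with a fold of 3.94. The third (chr7:35234770-35234843, minus strand) had none within 1 kb, the nearest lying at 4241 bp. Of all 31365 autosomal promoter windows of 300 bases, 0.823% held these B box letters.

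CTCF summits were concentrated in the last kilobase around tRNA genes. A summit lay within 1 kb of 108 of 386 tRNA genes (28.0%, exact 95% interval 23.6 to 32.7). Tiles of 2072 bp, the length of the same window, laid without gaps over the autosomes held a summit in 4.22% of 1159956 cases. With tiles weighted to the tRNA genes' own mix of places near and away from coding gene ends, that background was 5.35%, so the tRNA share was 5.23 times higher. The share of tRNA genes exceeded that of the weighted tiles on 17 of 18 autosomes, by a mean of 28.4 percentage points ± 19.6 (SD, n = 18 autosomes; chromosome 18 holds no tRNA gene). The exact two-sided sign-flip permutation test over autosomes gave p = 2.29e-05 (adjusted p = 9.16e-05 over 4 tests, Benjamini-Hochberg). The exception was chromosome 15, with 0 of 4 genes bound. An excess at tRNA genes was already known from earlier results on these peaks, so this test is no independent support for it.

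**Figure D1:**
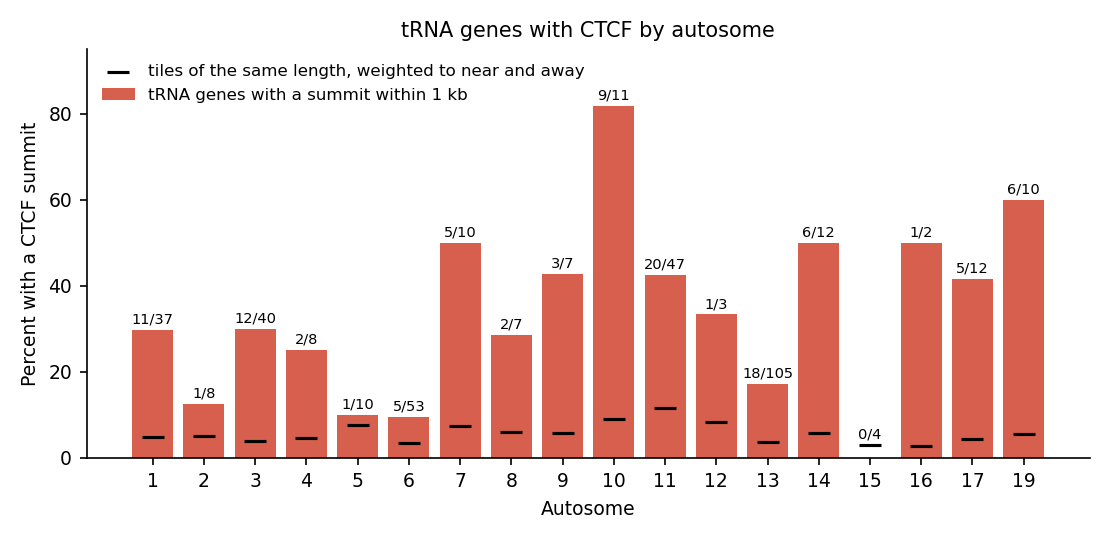
Percent of tRNA genes with a CTCF summit within 1 kb on each autosome that holds tRNA genes (bars, with bound and total genes above them) and percent of tiles of the same window length with a summit, weighted to the autosome's tRNA genes near and away from coding gene ends (black dashes). The bar exceeds the dash on 17 of 18 autosomes; these 17 bars run from 9.43% on chromosome 6 to 81.8% on chromosome 10, and chromosome 15 stands at 0.

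The density of summits fell near 1 kb and stayed above the autosomal mean beyond it. When each base and each summit of the autosomes was assigned to its nearest tRNA gene, the sequence within 1 kb held 94 summits in 0.634 Mb, or 148 per Mb, against a mean of 20.9 per Mb for all autosomal sequence. From 1 to 10 kb the density was 48.1 per Mb. By finer distance it was 160 per Mb up to 0.25 kb, 176 from 0.25 to 0.5 kb and 123 from 0.5 to 1 kb, and then 35.9 from 1 to 2.5 kb. The step was also present in sequence over 5 kb from any coding gene end, with 113 per Mb within 1 kb and 34.4 from 1 to 10 kb. Beyond 1 kb the density stayed between 41.0 and 51.9 per Mb out to 100 kb, except for the 35.9 at 1 to 2.5 kb. The summits seldom lay on the tRNA gene itself. Only n-TCgca56, a cysteine tRNA gene on chromosome 11 (97797072 to 97797143), had a summit inside it, with a fold of 6.14. For the 108 bound genes the median distance to the nearest summit was 360.5 bp, and the summit lay on the lower-coordinate side in 56 of them. A peak interval touched 57 tRNA genes (14.8%). With autosomes counted equally, this share exceeded that of tiles touched in their middle 72 bp by a mean of 19.2 percentage points.

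**Figure D2:**
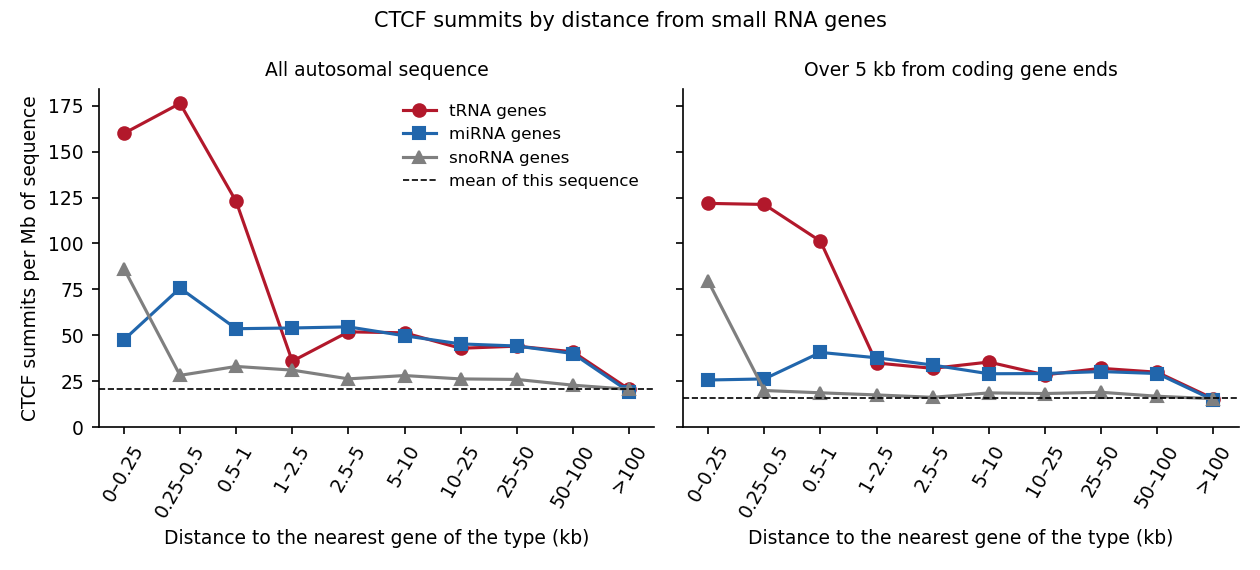
CTCF summits per Mb of autosomal sequence by distance to the nearest tRNA, miRNA or snoRNA gene, for all sequence (left) and for sequence over 5 kb from coding gene ends (right); the dashed line is the mean of that sequence. Around tRNA genes the density is 123 to 176 per Mb within 1 kb and 35.9 per Mb from 1 to 2.5 kb.

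The miRNA, snoRNA and snRNA genes had lower shares. A summit lay within 1 kb of an annotated end of 113 of 1136 miRNA genes (9.95%), 126 of 1276 snoRNA genes (9.87%) and 58 of 924 snRNA genes (6.28%). Within 5 kb of a coding gene end the shares were, in the same order, 17.2%, 19.1% and 15.1%, and farther away 5.89%, 7.50% and 4.63%. These shares have no test, and the 3 types have exact 95% intervals that reach at most 11.8%. Other short RNA polymerase III genes, described further below, went both ways: 3 of 49 5S rRNA genes and 6 of 8 others were bound. Around miRNA genes the density hardly fell past 1 kb, with 57.1 summits per Mb within 1 kb and 51.8 from 1 to 10 kb. By finer distance it was 47.5 per Mb up to 0.25 kb, 75.7 from 0.25 to 0.5 kb and 53.6 from 0.5 to 1 kb. Around snoRNA genes it was 86.3 per Mb up to 0.25 kb and 28.2 from 0.25 to 0.5 kb, a narrower step than at tRNA genes. Of 12324 lncRNA genes, 2405 had a summit within 1 kb of an end (19.5%), with 34.5% within 5 kb of a coding gene end and 12.4% farther away. Among all annotated autosomal genes 25.2% had a summit within 1 kb of an end, and among protein-coding genes 40.3%, but a long gene offers 2 separate windows where a tRNA gene offers 1.

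The tRNA genes near protein-coding genes were bound more often in the pooled counts, but the difference did not pass the test. Of 104 tRNA genes within 5 kb of a coding gene end, 45 had a summit (43.3%, exact 95% interval 33.6 to 53.3), where 11.3% of tiles near coding gene ends did. Of the 282 others, 63 had one (22.3%, interval 17.6 to 27.7), where 3.18% of tiles away from coding gene ends did. On the 16 autosomes that hold both kinds, the share was higher near coding gene ends on 9 and lower on 7, with a mean difference of 20.5 percentage points ± 43.5 (SD, n = 16 autosomes; exact sign-flip permutation p = 0.0797, adjusted p = 0.157). Autosomes counted equally, and on several of them a share rests on 1 or 2 genes. The largest difference, 94.1 percentage points on chromosome 6, rests on 2 near genes, both bound. The difference passed the threshold for single tRNA genes alone (a subset picked with the values known), with a mean of 32.1 percentage points (13 autosomes, exact permutation, adjusted p = 0.0176). It was 0.58 percentage points among peaks of fold at least 5. Within the near group, the share was 60% for the 15 genes within 250 bp of a coding gene end and 63.2% for the 19 from there to 500 bp. It was 53.8% for the 13 between 500 bp and 1 kb, 38.9% for the 18 between 1 and 2 kb and 25.6% for the 39 between 2 and 5 kb. The shares did not fall throughout, since among tRNA genes 5 to 20 kb from a coding gene end 51 of 154 were bound (33.1%). Of the near genes whose coding neighbour has a single strand in the promoter table, 29 of 62 next to a start (46.8%) and 12 of 30 next to an end of transcription (40%) were bound.

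An outermost end of a coding gene record did not stand beside most of the bound tRNA genes. For 79 of the 386 tRNA genes (20.5%) the nearest summit lay within 1 kb of the tRNA gene and over 1 kb from every such end. The other 29 bound genes, all in the near group, shared their summit with a coding gene end. Counted by peak, 24 of the 94 peaks at tRNA genes lay within 1 kb of such an end (25.5%). Of the 50173 other autosomal peaks, 16.4% did, so peaks at tRNA genes lay at coding gene ends more often, a difference that was not tested. Other annotated starts of coding genes did not count as ends, so the 79 include summits at such starts. The summit beside n-TCgca52 lay in the promoter window of Trmt61b, and n-TRtcg5 lay in a promoter window of Polg. Of tRNA genes over 20 kb from a coding gene end, 12 of 128 had a summit (9.38%, exact 95% interval 4.94 to 15.8); 3 of these 12 lay inside a long coding gene, and 9 of the 122 outside coding genes were bound (7.38%). Of tRNA genes inside an annotated lncRNA gene and no coding gene, 13 of 101 were bound (12.9%). Of these, 47 are cysteine genes of chromosome 6, with 2 bound, and without them 11 of 54 were bound (20.4%). Of those inside a coding gene 12 of 33 were bound (36.4%), and of the rest 83 of 252 (32.9%).

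**Figure D3:**
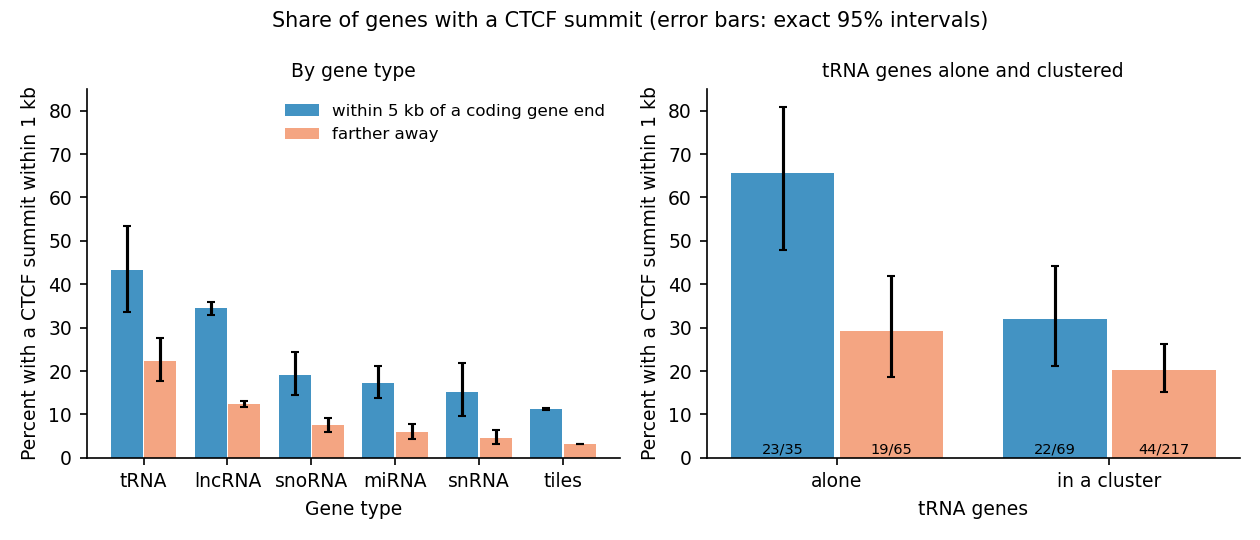
Left, percent of genes with a CTCF summit within 1 kb for tRNA, lncRNA, snoRNA, miRNA and snRNA genes and for tiles, within 5 kb of a coding gene end and farther away; right, the same for tRNA genes standing alone or in a cluster, with bound and total genes in the bars. Error bars are exact 95% intervals; the highest share is that of lone tRNA genes near coding gene ends, 23 of 35.

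Lone tRNA genes were bound at 42 of 100 (42%, exact 95% interval 32.2 to 52.3) and clustered ones at 66 of 286 (23.1%, interval 18.3 to 28.4). A cluster was 2 or more tRNA genes joined by gaps of at most 10 kb, and the 386 genes formed 61 clusters and 100 single genes. The difference did not pass the test over the 14 autosomes with both kinds, with a mean of −16.6 percentage points ± 36.8 for clustered minus alone (SD, n = 14 autosomes; exact sign-flip permutation p = 0.118, adjusted p = 0.157). Lone genes near coding gene ends had the highest share, 23 of 35 (65.7%), and lone genes away from them 19 of 65 (29.2%). Clustered genes had 22 of 69 (31.9%) near coding gene ends and 44 of 217 (20.3%) away. Among genes away from coding gene ends, a comparison added after the values were seen, the mean difference over autosomes was 0.77 percentage points (exact permutation, adjusted p = 0.937).

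By size of cluster the share was 33.8% in groups of 2 or 3 genes, 28.1% in groups of 4 to 7 and 12.5% in the 10 clusters of 8 or more, which hold 120 tRNA genes of which 15 were bound. Counted per locus, with a cluster as 1, 75 of 161 loci had a bound gene, and 33 of the 61 clusters did. A cluster covers more sequence than a lone gene, so these counts do not compare the 2 kinds. Against tiles of each locus's own length with 1 kb on either side, the share of loci was higher by a mean of 35.6 percentage points over autosomes. No such background was made for clusters alone. In clusters of 3 or more genes, 21 of 72 outermost genes (29.2%) and 30 of 164 inner genes (18.3%) were bound, values given with no test. The peaks were shared within clusters. Of the 94 peaks with a summit within 1 kb of a tRNA gene, 76 lay beside 1 tRNA gene, 12 beside 2 and 6 beside 3 or 4, and 12 bound genes had more than 1 such peak.

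The largest clusters differed widely from one another. The largest, on chromosome 6 from 48244316 to 48317586, held 22 tRNA genes, 21 of them for cysteine, over 73.3 kb with no summit inside, its nearest summits lying 38.4 and 107 kb outside. Its neighbour from 48332840 to 48363603, with 10 cysteine tRNA genes, also held none. How reads were placed among similar copies is not given, so whether these genes lack CTCF was not tested. On chromosome 1 a cluster of 15 genes for glycine, glutamate, aspartate and leucine tRNAs (171064164 to 171081946) had 3 bound genes and 3 summits inside. On chromosome 13, where tRNA genes lie among the largest group of histone genes, a cluster of 15 genes (21907111 to 21940995) had 1 bound gene and a cluster of 14 genes (23425646 to 23453514) had 4. A further chromosome 13 cluster of 10 genes (21234045 to 21279768) had 1. Between 21 and 24 Mb of chromosome 13, 18 of 104 tRNA genes were bound (17.3%). Small clusters could be bound throughout: all 4 genes on chromosome 3 from 19627959 to 19629067 (arginine, 2 tyrosine and alanine tRNAs) shared 1 peak of fold 5.40, and all 5 on chromosome 1 from 171101838 to 171111515 were bound. Both were picked out after their values were seen.

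The tRNA genes for arginine had the highest share of bound members by amino acid, 13 of 23 (56.5%, exact 95% interval 34.5 to 76.8), spread over 19 loci on 10 chromosomes. Those for tryptophan (4 of 8), valine (9 of 21), glutamine (6 of 15) and leucine (10 of 25) followed at 50%, 42.9%, 40% and 40%. Cysteine tRNA genes had the lowest share, 7 of 56 (12.5%, interval 5.18 to 24.1). On chromosome 6, where 48 of them lie in 7 loci, 3 were bound and the median distance to a summit was 66.7 kb. On other chromosomes 4 of 8 were bound, with a median distance of 1.02 kb. The other 14 amino acids lay between 18.2% for histidine and 33.3% for proline. The intervals of most amino acids overlap, and members in a cluster can share a peak, so the order among them is a description. By anticodon, 4 of 5 arginine genes with tct, 4 of 6 with acg, 3 of 4 with cct, 2 of 5 with tcg and 0 of 3 with ccg were bound. Among valine genes 5 of 8 with aac and 2 of 11 with cac were bound, and both genes with tac, which share 1 peak. Without the cysteine genes, 101 of 330 were bound (30.6%).

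**Figure D4:**
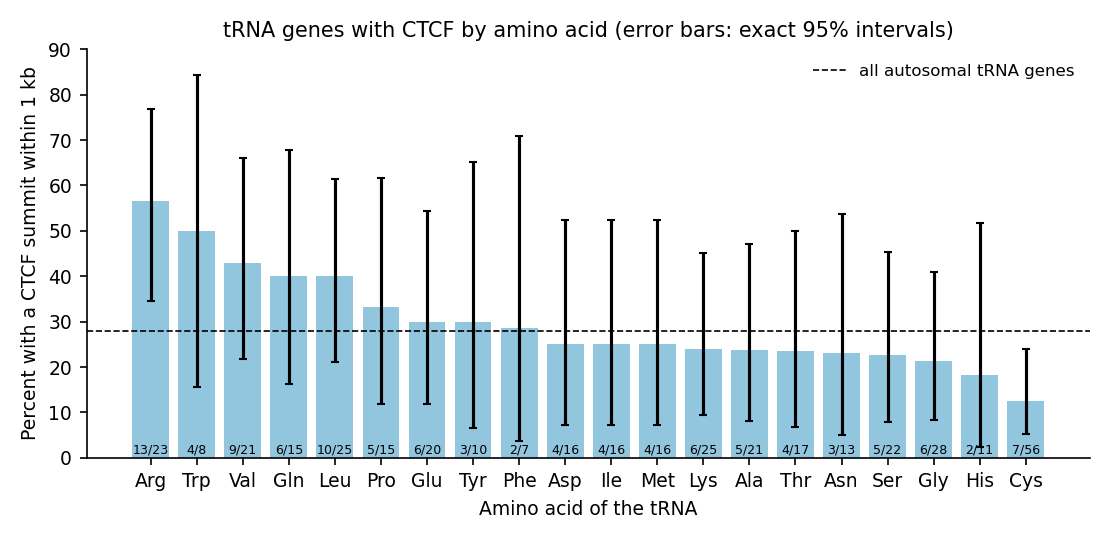
Percent of autosomal tRNA genes with a CTCF summit within 1 kb by amino acid, with bound and total genes in the bars, exact 95% intervals as error bars and the share of all tRNA genes (28.0%) as a dashed line. Arginine stands highest at 56.5% and cysteine lowest at 12.5%.

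The fold enrichment of peaks at tRNA genes was lower than that of other peaks by a margin that did not pass the test. The fold enrichment and −log10 q of a peak are the authors' own values. The 94 peaks at tRNA genes had a median fold of 6.08, from 2.40 to 17.9, and the 50173 other autosomal peaks had a median of 6.83, from 1.33 to 23.5. Over the 17 autosomes with such peaks the mean log2 ratio of medians was −0.13 ± 0.43 (SD, n = 17 autosomes; exact sign-flip permutation p = 0.220, adjusted p = 0.220), lower at tRNA genes on 11 and higher on 6. On chromosomes 2 and 5 the tRNA median is the value of 1 peak. Of the 94 peaks, 17 reached 10-fold or more (18.1%), against 19.6% of the others. The 24 tRNA peaks within 1 kb of a coding gene end had a median fold of 5.10, where other peaks at such ends had 5.56. The 70 tRNA peaks elsewhere had a median of 6.30, where other peaks away from coding gene ends had 7.05. Peaks elsewhere can still lie at annotated starts other than the outermost ends of a coding gene. The median width was 545.5 bp at tRNA genes and 538 bp for the others.

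**Figure D5:**
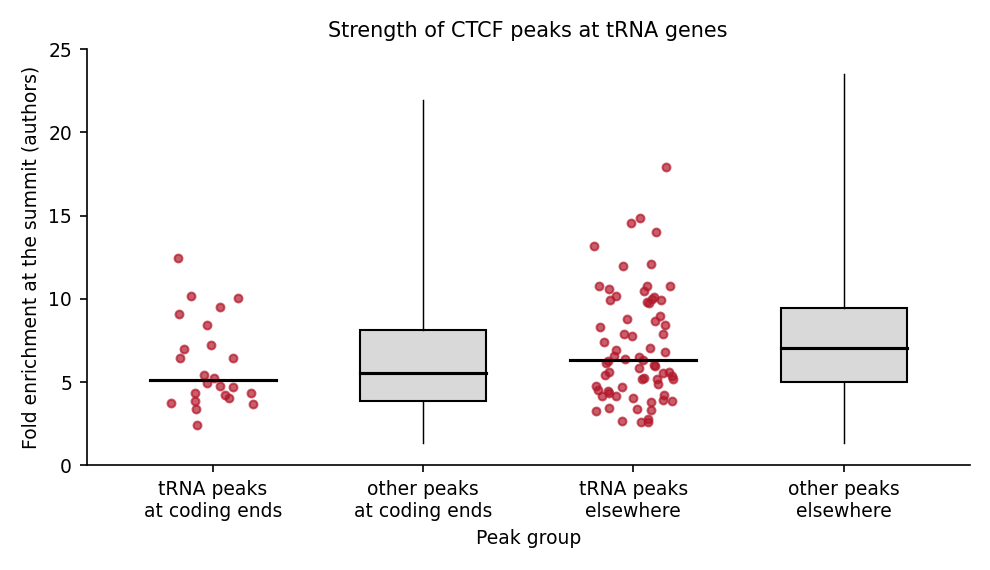
Fold enrichment at the summit, as the authors gave it, for peaks within 1 kb of a tRNA gene (points, with the median as a line) and for all other autosomal peaks (box from the first to the third quartile, median line, whiskers to the lowest and highest value), split by whether the summit lay within 1 kb of a coding gene end. The medians are 5.10 and 5.56 at coding gene ends and 6.30 and 7.05 elsewhere.

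The strongest peak at a tRNA gene over 5 kb from coding gene ends was enriched 17.9-fold, at a −log10 q of 94.2. It spanned chromosome 3 from 97680263 to 97682365, with its summit 728 bp from the glutamine tRNA gene n-TQctg2 (97681459 to 97681530), which stands alone 7647 bp from Prkab2, encoding a subunit of the energy sensor AMPK. Among all autosomal peaks its fold was at percentile 99.6. The next, of fold 14.8, had its summit on chromosome 19 at 12012462, 124 bp outside the end of an 8-gene cluster, and lay within 1 kb of 3 genes, n-TRtct1, n-TVtac1 and n-TVtac2. A peak of fold 14.6 lay 359 bp from n-TMcat13 on chromosome 13. A peak of fold 13.2 on chromosome 1 (summit 165641580) lay 54 bp from n-TPagg2 and served n-TPcgg2 as well. A peak of fold 12.1 lay 116 bp from n-TVaac1 on chromosome 4, which stands inside a coding gene, 49847 bp from the nearest coding gene end, one of Ubr4. These strong peaks thus stood at lone genes and at members of clusters alike. The other 5 named away from coding gene ends, at n-TYgta7, n-TCgca57, n-TAagc17, n-TSaga6 and n-TGgcc7, had folds from 10.6 to 11.998.

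Near coding gene ends the strongest peak, of fold 13.995, lay 279 bp from n-TLtag1 on chromosome 7 (120835479 to 120835560), 3580 bp from Gm5737. A peak of fold 12.4 lay 557 bp from n-TIaat16 on chromosome 7. The 3 arginine tRNA genes n-TRcct5, n-TRcct3 and n-TRtcg4 on chromosome 11 shared a peak of fold 10.1 with an end of Mrpl58, a gene of the mitochondrial ribosome. The arginine tRNA gene n-TRacg6 and Prmt5, which encodes an arginine methyltransferase, shared a peak of fold 10.04 whose summit was 41 bp from the Prmt5 end. n-TMcat11 and Ilf2, encoding a nuclear RNA-binding factor, shared one of fold 9.50, and n-TKctt27 and Aloxe3, encoding a lipoxygenase of the epidermis, one of fold 9.07. The peak beside n-TGgcc7 and n-TMcat7 (10.6) counts here too, since n-TMcat7 lies within 5 kb of a coding gene end and n-TGgcc7 just beyond. Those at n-TEctc9 (10.1), n-TRtcg5 (9.99) and n-TKctt24 (8.95) completed the 10 strongest.

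Several bound tRNA genes stood directly before a coding gene. Shown are 4 stretches of 250 bases that end at an annotated start, picked from the 16 promoter windows that hold a tRNA-linked summit. The last precedes a lncRNA gene, and its tRNA gene lies past that start, inside a lncRNA gene. It was 1 of only 2 windows of the 16 with the loosely written CTCF core described below. They come from the RefSeq promoter table of GRCm38.p6 and are given in the direction of the coding or lncRNA gene. In the first and second, capitals mark bases of a tRNA gene.
Polr3e: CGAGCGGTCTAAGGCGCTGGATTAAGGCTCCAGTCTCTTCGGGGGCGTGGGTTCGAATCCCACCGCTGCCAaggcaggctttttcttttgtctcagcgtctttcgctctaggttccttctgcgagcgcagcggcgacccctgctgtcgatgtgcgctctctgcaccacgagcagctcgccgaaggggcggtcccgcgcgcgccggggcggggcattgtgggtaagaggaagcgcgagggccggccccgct
Prmt5: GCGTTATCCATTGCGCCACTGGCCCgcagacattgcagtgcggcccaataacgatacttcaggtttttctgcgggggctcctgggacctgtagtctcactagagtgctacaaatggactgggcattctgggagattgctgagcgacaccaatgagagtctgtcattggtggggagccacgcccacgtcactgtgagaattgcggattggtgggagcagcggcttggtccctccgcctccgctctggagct
Ilf2: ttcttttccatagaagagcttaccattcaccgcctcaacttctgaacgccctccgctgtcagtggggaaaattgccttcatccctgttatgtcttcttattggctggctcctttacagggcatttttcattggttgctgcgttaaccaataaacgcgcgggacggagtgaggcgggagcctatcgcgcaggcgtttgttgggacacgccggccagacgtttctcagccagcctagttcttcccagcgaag
B230208H11Rik: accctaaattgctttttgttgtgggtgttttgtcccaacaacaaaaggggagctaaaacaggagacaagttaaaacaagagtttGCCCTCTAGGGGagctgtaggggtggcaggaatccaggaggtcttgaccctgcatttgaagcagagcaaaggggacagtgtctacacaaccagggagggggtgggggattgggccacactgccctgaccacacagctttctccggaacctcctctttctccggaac
The Polr3e stretch (chr7:120917528-120917777, plus strand) begins with 71 of the 82 bases of the leucine tRNA gene n-TLaag4, so a gene for a subunit of RNA polymerase III has a template of that polymerase just before its start. The CTCF summit there, of fold 4.23, was at base 153 of the stretch, 82 bp from the tRNA gene. The Prmt5 stretch (chr14:54517471-54517720, minus strand) begins with 25 bases of n-TRacg6 and has its summit at base 210. In the Ilf2 stretch (chr3:90475951-90476200, plus strand) the summit was at base 19, and n-TMcat11 ends before its first base, so it has no capitals. In the stretch before the lncRNA gene B230208H11Rik (chr10:12923128-12923377, minus strand) the summit, of fold 9.75, was at base 101 and the tRNA gene n-TLtaa3 lay 624 bp from it. The capitals there mark 12 letters that match a loosely written CTCF core (CC, AG and GGC with 3 and then 2 free bases between them) on the reverse strand, centred 10 bp from the summit.

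The letters of the CTCF core were seldom found in promoter windows, whether or not they hold a tRNA-linked summit. The core, searched on both strands as CCA, AG and GGC with 2 free bases between each and the next, occurred in 0 of 16 such windows of 300 bases, which allows a share of up to 18.8% by a limit of 3 counts and 20.6% by the exact 95% interval. It occurred in 7.50% of 4175 windows with another summit and in 2.47% of all 31365 windows. The looser form, which leaves the A of CCA free, was added once values were known and takes in every match of the first. It occurred in 2 of the 16 windows (12.5%, exact 95% interval 1.55 to 38.3), in 23.4% of windows with another summit and in 8.73% of all windows. For both forms the interval of the 16 windows holds the share of windows with another summit. The 2 were those of B230208H11Rik and of Smarcc2, a chromatin remodelling gene, where the letters CCGGCAGGGGGC were centred 1 bp from the summit beside n-TScga2. These counts have no test, are few and cover only tRNA genes close to an annotated start.

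At the 1 kb limit the values ran on without a gap. The 5 genes just inside it, n-TRtcg4, n-TCgca37, n-TAagc12, n-TVaac8 and n-TRacg3, had their nearest summit at 0.924 to 0.962 kb, with folds from 3.87 to 10.1. The 5 just outside, n-TYgta3, n-TAagc8, n-TLcaa4, n-TTcgt3 and n-TGgcc11, had it at 1.03 to 1.10 kb, with folds from 4.70 to 11.2. With a limit of 2.5 kb, 157 of 386 genes (40.7%) were bound, and with 500 bp 69 (17.9%). Tiles of the matching window lengths, weighted as above, held a summit less often. The mean differences over autosomes were 33.0 percentage points at 2.5 kb and 21.6 at 500 bp. At the other extreme, 5 lone tRNA genes away from coding gene ends lay far from any summit. n-TEctc2 on chromosome 12 had its nearest summit at 928 kb, n-TIaat2 on chromosome 4 at 904 kb, n-TLcag1 on chromosome 3 at 615 kb, n-TVcac5 on chromosome 6 at 500.8 kb and n-TKctt7 on chromosome 1 at 338 kb. The median distance over all 386 genes was 4.30 kb.

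Genes of RNA polymerase III and its factors, those for small nuclear RNA genes included, and genes that process and charge tRNA were counted as well, shown with no test beside the 40.3% of all protein-coding genes. Of 31 genes of the RNA polymerase III machinery, 24 had a summit within 1 kb of an end (77.4%, exact 95% interval 58.9 to 90.4). The highest folds were 13.96 at Polr3k, a polymerase subunit, 8.82 at Brf1, the TFIIIB subunit used at tRNA genes, 8.69 at Snapc1 and 7.74 at Snapc5, of the complex for small nuclear RNA genes, and 7.61 at Brf2, the TFIIIB subunit used with that complex. The 7 without a summit were Gtf3c3, Gtf3c6, Polr3c, Polr3d, Snapc2, Snapc3 and Snapc4. The median fold of the 24 was 4.59, where that of peaks at coding gene ends away from tRNA genes was 5.56, values given with no test. Of 28 tRNA maturation genes, 20 were bound (71.4%, interval 51.3 to 86.8), led by Trnt1, which adds the CCA end, with 15.6, the RNase P genes Rpp21 and Rpp14 with 10.95 and 10.1, Pop5 of the same enzyme with 9.82 and the splicing endonuclease gene Tsen54 with 9.26. Of 20 cytosolic aminoacyl-tRNA synthetase genes, 12 were bound (60%, interval 36.1 to 80.9), led by Sars with 12.3, Mars1 with 11.6, Wars with 9.94, Qars with 8.55 and Rars with 6.71.

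Other genes that RNA polymerase III transcribes were counted by kind. Of 49 annotated 5S rRNA genes, 3 had a summit within 1 kb (6.12%, exact 95% interval 1.28 to 16.9), with folds of 15.8 at n-R5s28, 5.41 at n-R5s194 and 5.30 at n-R5s151. The low share rests on 1 array on chromosome 8 (123538784 to 123622046), which holds 40 of the 49 with none bound, and outside it 3 of 9 were bound (33.3%). How reads were placed among the repeated genes of this array is not given, so whether they lack CTCF was not tested. Of 8 other genes, 6 did: Rn7sk, which restrains transcription elongation, with 8.66, Vaultrc5, a vault RNA gene, with 8.63, the signal recognition particle RNA genes Rn7s1 with 5.01 and Rn7s2 with 3.95, Rmrp, the RNA of RNase MRP, with 4.55, and the Y RNA gene Rny3 with 3.93. The summits at Rn7sk and Vaultrc5 lay close to the limit, at 982 and 919 bp, and those at Rn7s1, Rn7s2, Rmrp and Rny3 at 140 to 512 bp. Rpph1, the RNA of RNase P, and Rny1 had none.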

How the data were processed

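CTCF chromatin immunoprecipitation was sequenced in testes, with 2 IP and 2 input samples. The submitters' processing notes name BWA 0.7.12, MACS2 2.2.7 and mm10 with no role or order, and the deposited list is called merged. How reads from near-identical tRNA copies were placed is not given in the sources used here. Per peak, the authors deposited a score, a fold enrichment (a ratio) and −log10 values of p and q; fold and −log10 q were used. The deposited summit offset gave the summit, 1-based.

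Genes came from the RefSeq table of GRCm38.p6, and those starting below 3 Mb on an autosome were left out. A tRNA gene was bound with a summit within 1 kb, near within 5 kb of a protein-coding gene end, and clustered across gaps of at most 10 kb. Coding gene ends were the lowest and highest base of each gene record, and other annotated starts did not count. Of 386 symbols, 385 gave an amino acid and anticodon. Differences per autosome were tested by exact two-sided sign-flip permutation with Benjamini-Hochberg adjustment over 4 tests. The tests of the share against tiles and of fold were checked on simulated data, and those of near against away and of clustered against alone were not. The tests counted autosomes equally, however few genes or peaks they held. Exact Clopper-Pearson intervals treat genes as independent, which neighbours are not, and cover counting error only. The sequences given were promoter windows of coding and lncRNA genes, so the B box was searched in the 4 tRNA genes that lie whole in one and not in the others.

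Named were the 10 strongest peaks near and the 10 away from coding gene ends, the 5 largest clusters, the 5 genes on each side of 1 kb, the 5 farthest, and 5 genes per list. Clusters named beyond these were chosen after their values were seen. The members and lists were chosen with earlier results of these data known. Alternatives were other windows, peak thresholds, gaps and units of counting. Python 3.11.15, NumPy 2.4.6, pandas 2.3.3 and SciPy 1.17.1 were used.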

Additional observations from a re-analysis of the deposited data

How the results depend on the processing

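The excess of summits at tRNA genes passed the threshold under all 9 alternatives run, with a mean over autosomes of 13.8 (only the upper part of the peaks by −log10 q, from their median up) to 35.6 percentage points (loci in place of genes). The difference between tRNA genes near and away from coding gene ends passed it when near meant within 10 kb (23.1 percentage points, exact permutation adjusted p = 0.0244) and for single tRNA genes alone (32.1), was 0.58 with fold at least 5 and changed sign to −1.42 when only those upper peaks by −log10 q counted. Clustered minus alone changed sign to 0.77 among genes away from coding gene ends. The log2 ratio of fold at tRNA genes to other peaks changed sign to 0.16 when the other peaks were those at coding gene ends. In these the cause was not tested. Weighting autosomes, leaving out cysteine genes, and using single genes or genes away from coding gene ends were chosen after the data were seen. No paired analysis was possible because the 1 merged list has no values of single samples, and for that reason no replicate could be left out. The read depth is not given, so sites too weak to be called cannot be counted.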

Other observations

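The tRNA genes of the X chromosome were outside the comparisons above. None of the 17 had a summit within 1 kb (0 of 17, which allows a share of up to 17.6% by a limit of 3 counts and 19.5% by the exact 95% interval), and 2 of them lay within 5 kb of a coding gene end. Their nearest summits were 1.25 to 351 kb away, with a median of 45.8 kb. Tiles were laid over autosomes only, so there is no X background beside this count. Whether X tRNA genes differ from other X sequence or from autosomal tRNA genes was not tested.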
